A study of Mus musculus with 2 samples.

Results

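The mature regulatory dendritic cells (mregDCs) described here were 100 of 48143 filtered cell barcodes in a scRNA-Seq experiment on denervated mouse skeletal muscle, 44 of 23385 in the IgG library and 56 of 24758 in the SPP1-nAb library. They were chosen from measured values. A barcode was counted as an mregDC when it had more than 200 detected genes, less than 10% mitochondrial UMIs (unique molecular identifiers, one for each captured RNA molecule), a UMI of at least 3 of the 4 genes *Ccr7*, *Ccl22*, *Il12b* and *Fscn1*, and no UMI of *C1qa* or *Siglech*. The levels of these 6 genes in mregDCs are therefore a description and no finding. Because every extra UMI is another chance to record a gene, the rule also favored barcodes that were sequenced more deeply.

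Both libraries came from male mice, 10–16 weeks of age, whose peroneal nerves were injured on both sides. The series description gives their strain as C57BL/6J. Each mouse received 2 μg of antibody in 10 μL into the tibialis anterior (TA) muscle every 2 days, either goat anti-mouse IgG (IgG) or an antibody that neutralizes the secreted protein SPP1 (SPP1-nAb), and muscle was taken at 7 days post injury (7 dpi). The study's methods name the mice as *S100GFP*-tg, which carry GFP driven by the *S100B* promoter to mark Schwann cells, and describe muscles of several mice pooled. They assign C57BL/6J mice to the sciatic nerve crush experiments instead. Their general dissociation protocol covers the TA and the gastrocnemius (GTN), but for the antibody experiment only TA muscle is named. The library titles name GFP-positive cells, whereas the methods describe sorting of viable GFP-positive and GFP-negative cells, so the share of any cell type depends on a sort that the labels do not settle. Each condition was 1 library, no uninjured muscle was part of it, and the libraries held 97607674 (IgG) and 127719916 (SPP1-nAb) UMIs over all 23779 and 25069 deposited barcodes. With 1 library per condition there was no replicate check and no test. The 95% intervals below are exact (those of differences combine the exact limits of both shares) and cover counting error alone.

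Conventional dendritic cells sample tissue as immature cells of type 1 (cDC1), known for cross-presentation to CD8+ T cells, or of type 2 (cDC2), known for presentation to CD4+ T cells. After they take up cell debris or sense danger, either type can mature, stop taking up antigen, display what it holds on MHC molecules and follow CCR7 ligands along lymphatic vessels to the draining lymph node. The term mregDC is used for mature dendritic cells that carry costimulatory molecules together with inhibitory ones such as PD-L1 (*Cd274*).

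The mregDCs made up 0.188% (0.137%–0.253%) of filtered barcodes in IgG and 0.226% (0.171%–0.294%) in SPP1-nAb. The difference of 0.0380 percentage points had an interval from −0.0468 to 0.123 and was not detectable at these numbers. Measured against dendritic cells instead, mregDCs were 6.79% (4.98%–9.01%) of 648 mregDC, cDC1 and cDC2 barcodes in IgG and 9.05% (6.91%–11.6%) of 619 in SPP1-nAb, a difference of 2.26 percentage points (−0.826 to 5.38). Both intervals held 0. With every barcode thinned to 2000 UMIs before the rule was applied the shares were 0.152% and 0.171% (a difference of 0.0193 percentage points), and with all 4 genes required the difference was 0.00167 percentage points. The mregDCs had a median of 4708 UMIs in IgG (1148–10130) and 6342 in SPP1-nAb (1626–17900), close to the 4745 and 5561 of cDC2s and below the 6458 and 7455 of cDC1s. A total of 163 barcode sequences occurred in both libraries, and 0 of them were mregDCs.

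At the edge of the rule, 34 mregDCs in IgG and 45 in SPP1-nAb held exactly 3 of the 4 genes, and 10 and 11 held all 4. Just outside it, 61 and 75 barcodes held 2 of the 4 with no UMI of the excluded genes, and 4 and 8 barcodes held at least 3 but also a UMI of *C1qa*, a complement gene of macrophages. *Ccr7* was present in every mregDC. The commonest combination was *Ccr7*, *Ccl22* and *Fscn1* without *Il12b* (23 mregDCs in IgG, 25 in SPP1-nAb), whereas 9 and 16 mregDCs lacked *Fscn1* and 2 and 4 lacked *Ccl22*.

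The 4 defining genes encode the homing receptor that guides dendritic cells to lymph nodes (*Ccr7*, GRCm39 chr11:99035022-99045911, minus strand), a chemokine that attracts CCR4-bearing regulatory T cells (*Ccl22*, chr8:95471226-95478327, plus strand), the p40 subunit shared by IL-12 and IL-23 (*Il12b*, chr11:44290808-44305505, plus strand) and the actin-bundling protein fascin (*Fscn1*, chr5:142946098-142958953, plus strand). Their levels, as CPM (the share of a gene in the UMIs summed over a group, scaled to 1000000), were 2190 in IgG and 2198 in SPP1-nAb for *Ccr7*, 1888 and 1412 for *Ccl22*, 1419 and 2176 for *Il12b*, and 1046 and 734 for *Fscn1*. To set aside depth, each barcode was also thinned at random to 2000 UMIs, which left out 1 IgG and 2 SPP1-nAb mregDCs. At that depth *Ccr7* was found in 95.3% of IgG and 90.7% of SPP1-nAb mregDCs, against 0.0747% and 0.248% of macrophages (barcodes with a UMI of *C1qa*, *C1qb* and *Adgre1*). Free RNA and doublets can add UMIs to any barcode, and the source of *Ccr7* in the macrophage barcodes was not tested.

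The label was set beside 20 further genes that are known from mature dendritic cells and that the rule did not read. The list was chosen with earlier results of these data known. Cells chosen on some maturation genes will also carry others, so these values describe the cells and are no test. At 2000 UMIs an IgG mregDC held a median of 10 of them (range 3–17) and an SPP1-nAb mregDC a median of 9 (1–16), compared with 1 and 1 in cDC1s, 1 and 2 in cDC2s and 2 and 2 in macrophages. At least 5 of the 20 were present in 90.7% of IgG and 87.0% of SPP1-nAb mregDCs, but in 1.88% and 4.02% of cDC2s, 0.598% and 1.31% of macrophages and 0% of cDC1s in both libraries. Barcodes just outside the rule, with 2 of the 4 genes, lay between these groups with medians of 6.5 and 5.5. At least 5 of the 20 were present in 65.5% and 54.1% of them.

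Markers of other cells were sparse in the mregDCs. The T and NK cell list gave 2 UMIs in IgG and 5 in SPP1-nAb over all mregDCs, with 15 and 13 of 16 genes at 0, and the B cell list gave 4 and 16 UMIs. The macrophage list summed to 222 CPM (IgG) and 508 CPM (SPP1-nAb) in mregDCs, compared with 25190 in IgG macrophages, and its most abundant gene was *Lyz2*, encoding lysozyme, at 88.7 and 204 CPM. The plasmacytoid list summed to 85 and 143 UMIs, of which *Bst2* gave 45 and 72. The neutrophil (4 and 23 UMIs), endothelial and mural (9 and 12) and muscle cell (1 and 2) lists were close to 0. An exception was the mesenchymal list, with 29 UMIs in IgG and 609 in SPP1-nAb mregDCs, of which 577 were in 1 SPP1-nAb barcode of 17903 UMIs with a doublet score of 0.94. The other SPP1-nAb mregDCs held 32. The part of these cells in the results was not tested beyond repeating the counts without that barcode, which is reported with the processing alternatives.

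**Figure D1:**
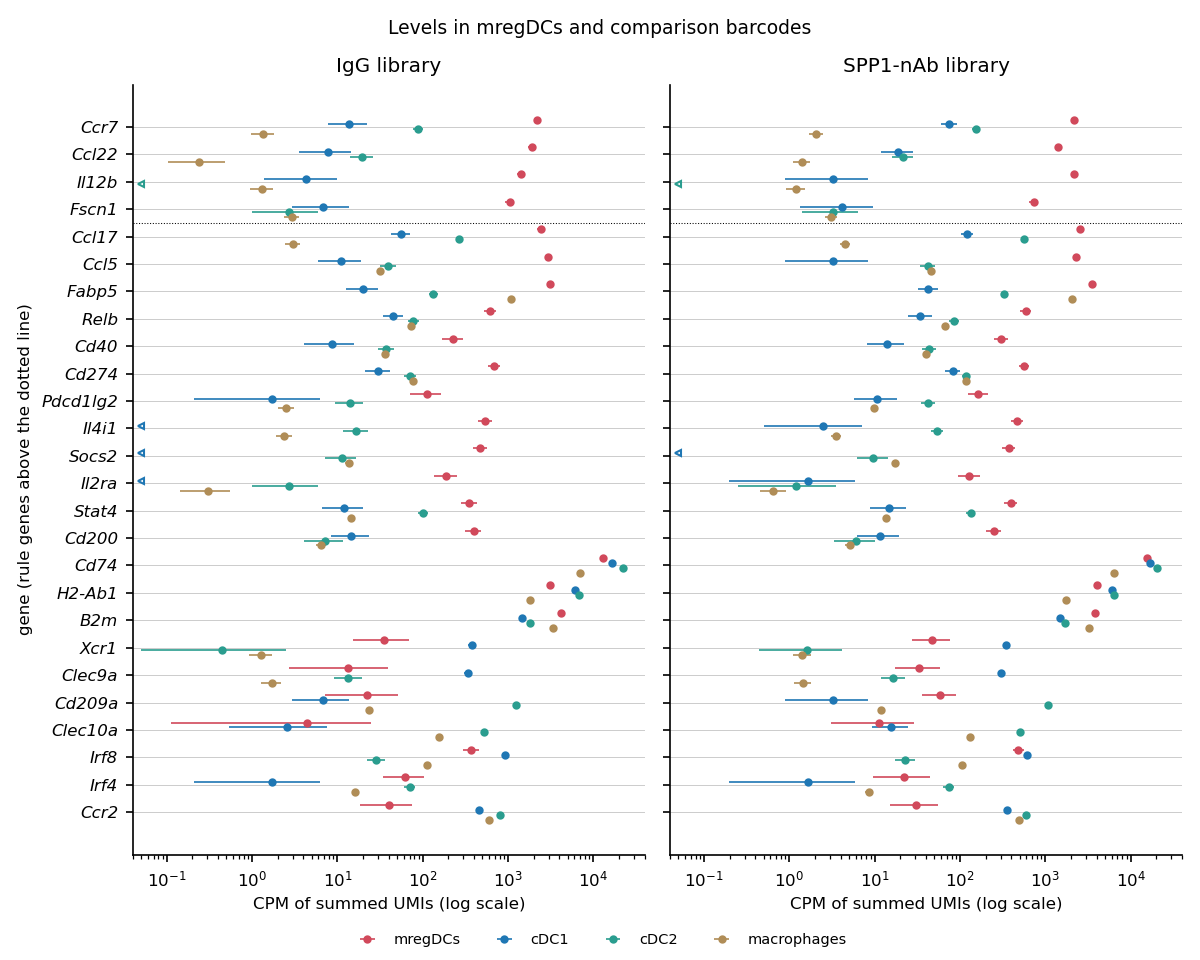
Level of selected genes in mregDCs, cDC1s, cDC2s and macrophages of the IgG and SPP1-nAb libraries, as CPM of summed UMIs on a log axis. Points are group values, lines are exact 95% intervals for counting error, and open triangles at the left edge mark groups with 0 UMIs. The mregDCs lie furthest to the right for *Ccr7*, *Ccl5* and *Cd274* in both libraries.

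To find what set mregDCs apart from the dendritic cells they resemble most, their summed UMIs were compared within each library with those of cDC1s (175 in IgG, 160 in SPP1-nAb, holding at least 3 of *Xcr1*, *Clec9a*, *Itgae*, *Cadm1* and *Snx22*) and cDC2s (429 and 403, holding *Cd209a* and at least 2 of *Klrd1*, *Flt3*, *Clec10a* and *H2-DMb2*), pooled as cDCs. Like the mregDCs, these cells held no UMI of *C1qa* or *Siglech*. A gene was called higher or lower when the CPM ratio was at least 2 in the same direction in both libraries. Of 5213 genes with a mean of at least 20 CPM, 430 were higher in mregDCs (8.25%) and 652 were lower (12.5%). The 430 include the 4 genes that chose the cells, and since cells chosen on some genes of a maturation program will carry the rest of it, these folds describe the cells and are no test. The ratios of the libraries ran together across genes (Pearson's r = 0.793 over 5092 genes, which are not independent replicates). With median-of-ratios size factors in place of total UMIs, 509 genes were higher and 527 lower. That scaling moved log2 values by −0.12 and −0.07 in IgG and SPP1-nAb mregDCs and by at most 0.08 in cDC1s and cDC2s.

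**Figure D2:**
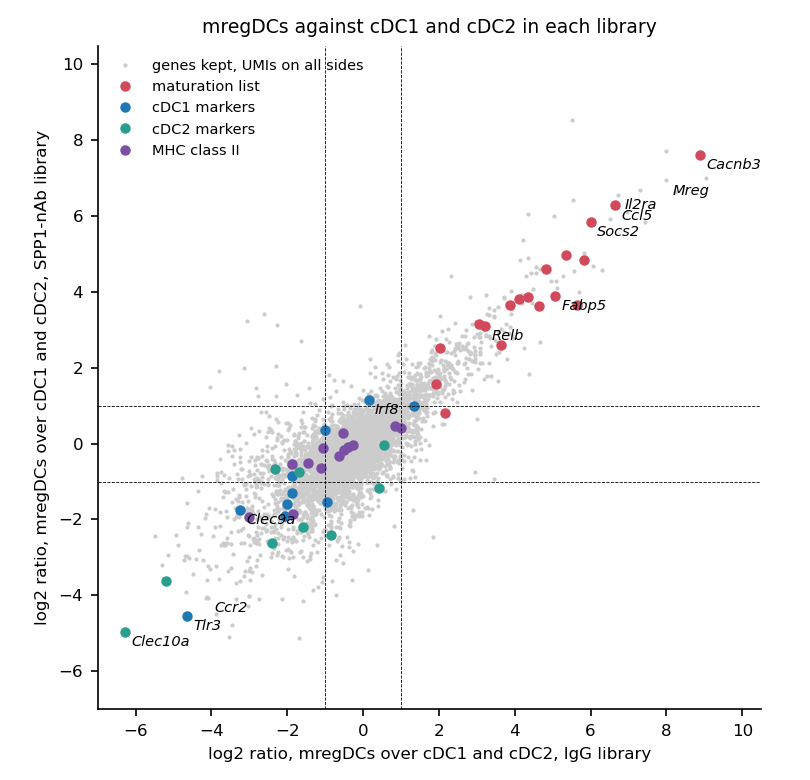
Log2 ratio of CPM in mregDCs over cDC1s and cDC2s, in the IgG library (horizontal axis) against the SPP1-nAb library (vertical axis), with 1 point per gene. Dashed lines mark 2-fold, and colored points are genes of the lists named in the legend. Most genes of the maturation list fall in the upper right, past 2-fold in both libraries, and most MHC class II genes lie at or below 0.

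Of the 20 maturation genes, 19 were higher in mregDCs, 0 were lower, and the median log2 ratio was 4.74 in IgG and 3.85 in SPP1-nAb, beside −0.29 and −0.20 over all genes kept. The exception was *Ramp3*, a partner of the calcitonin receptor family, with log2 ratios of 2.16 and 0.82. *Socs2*, a feedback inhibitor of cytokine receptors, stood at 470 and 374 CPM in mregDCs and at 7.35 and 6.48 in cDCs, 63.9-fold and 57.7-fold higher, with 0 UMIs in the cDC1s of either library. *Cacnb3*, a calcium channel subunit, was at 279 and 159 CPM on 2 and 3 cDC UMIs, a log2 ratio of 8.89 (6.98–11.97) in IgG and 7.62 (6.00–9.94) in SPP1-nAb. The chemokine *Ccl5* (chr11:83416602-83425942, minus strand), which draws T cells, was at 2926 and 2290 CPM and was 99.5-fold and 78.5-fold higher. *Relb*, a subunit of the noncanonical NF-κB pathway, was 9.27-fold and 8.61-fold higher, and *Cd40*, the receptor for T cell help, was 8.27-fold and 8.92-fold higher. *Fabp5*, a fatty acid–binding protein, was at 3139 and 3512 CPM in mregDCs, with log2 ratios over cDCs of 5.06 and 3.90, but macrophages carried it as well at 1078 and 2063 CPM. The tetraspanin *Cd63* was shared with macrophages in the same way (1454 and 1096 CPM in mregDCs, 888 and 1153 in macrophages).

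Among the 15 genes furthest above cDCs by the rule for named genes, several had no UMI in any cDC. *Lad1* (chr1:135746332-135761080), which encodes a basement membrane–associated protein, had 30 and 32 UMIs in IgG and SPP1-nAb mregDCs and 0 in cDCs, so that it was at least 151-fold and 110-fold higher (against 3 counts over the group). *Tnfrsf4* (chr4:156098293-156101069), the gene of the costimulatory receptor OX40, had 24 and 57 UMIs against 0, at least 121-fold and 196-fold higher. *Apol7c*, an apolipoprotein L gene of dendritic cells, was at least 171-fold and 148-fold higher. *Dscaml1* was at least 131-fold and 75.7-fold higher, and *H2-M2*, a nonclassical MHC gene, was at least 95.5-fold higher in IgG and had 40 UMIs against 1 in SPP1-nAb. *Mreg*, encoding the organelle transport protein melanoregulin, was measured on more UMIs (136 and 192 in mregDCs, 8 and 16 in cDCs) and was 256-fold and 124-fold higher. *Nudt17*, *Slco5a1*, *Tm4sf5*, *Slc4a8* and *Mab21l3* completed the group with *Il2ra*, described below.

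Inhibitory genes were higher together with activating ones. Of 17 measured genes of the regulatory and checkpoint list, 10 were higher in mregDCs and 1 was lower, with median log2 ratios of 3.51 and 2.37. *Cd274* (chr19:29344529-29365495), which encodes PD-L1 and restrains PD-1–bearing T cells, was at 687 and 569 CPM in mregDCs, 12.0-fold and 5.35-fold above cDCs. At 2000 UMIs it was found in 65.1% and 51.9% of mregDCs and in 10.7% and 16.9% of macrophages. *Pdcd1lg2* (PD-L2) was 11.4-fold and 5.16-fold higher. *Cd200*, whose receptor calms myeloid cells, was 40.7-fold and 31.7-fold higher. *Il4i1* (chr7:44465354-44490233), a secreted amino acid oxidase that restrains T cells, was 49.7-fold and 12.6-fold higher and was found in 58.1% and 48.1% of mregDCs, against 0.553% and 0.708% of macrophages. *Aldh1a2*, which makes retinoic acid, was 23.6-fold and 22.7-fold higher, and the granzyme inhibitor *Serpinb9* was 47.5-fold and 23.5-fold higher. *Fas*, *Ebi3*, *Socs2* and *Serpinb6b* made up the 10. Other genes known for tolerance did not take part. *Ido1* had 0 UMIs in the mregDCs of either library, *Il10* had 0 and 1, and *Tgfb1* had log2 ratios of −1.19 and −0.98, while *Havcr2* (TIM-3), a gene of cDC1s, was the 1 that was lower.

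Costimulatory genes were a mixed group, with 6 of 11 higher and 0 lower. *Cd80* was 2.83-fold and 2.10-fold higher, and *Tnfrsf9* (4-1BB) was 33.9-fold and 19.5-fold higher, on 18 and 34 UMIs. In contrast, *Cd86* (log2 0.43 and 0.52) and *Cd83* (0.79 and 0.35), which are used as maturation markers too, did not reach 2-fold in either library, as cDCs carried 257–302 CPM of *Cd86* and 517–575 CPM of *Cd83* already.

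Cytokine genes were few. Beside *Il12b*, which chose the cells, its partners were all but missing, since *Il12a* had 0 UMIs in IgG and 1 in SPP1-nAb and *Il23a* had 0 in both. Depth limits this statement, as 0 UMIs in a group allows a level of up to 13.3 CPM in IgG mregDCs and 8.37 CPM in SPP1-nAb mregDCs. *Il15*, which sustains NK and memory T cells, was 8.52-fold and 4.33-fold higher, and *Il15ra*, which presents it, was 20.6-fold and 67.1-fold higher. *Il1b* was 2.48-fold and 3.24-fold lower than in cDCs, where cDC2s held 3105 and 3247 CPM. Of 12 chemokine genes kept, 5 were higher and 3 lower. *Ccl17*, the other CCR4 ligand, was 12.5-fold and 6.08-fold higher. *Cxcl16* was 5.53-fold and 6.23-fold higher and *Ccl3* 2.25-fold and 2.36-fold. *Cxcl9*, induced by interferon-γ, was 14.9-fold and 16.1-fold higher but rested on few cells, since at 2000 UMIs 2.33% of IgG mregDCs held it. The monocyte attractants *Ccl2*, *Ccl7* and *Ccl6* were the 3 that were lower, and the lymph node chemokine *Ccl19* had 0 UMIs in both libraries.

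Homing receptors differed in direction. Beside *Ccr7*, *Gpr183*, a receptor for oxysterols that positions cells in lymphoid tissue, was at 776 and 764 CPM and 2.62-fold higher in both libraries. *Ccr2*, which brings monocyte-derived and other cells into inflamed tissue, was 17.0-fold and 16.7-fold lower, on 9 and 11 mregDC UMIs. *Ccr1* was lower as well (log2 −2.08 and −2.02). Of 7 receptors kept, 1 was higher and 4 were lower, including *Xcr1*, which chose the cDC1s. *S1pr1*, needed for exit along sphingosine-1-phosphate, had 0 UMIs in the mregDCs. Of 18 genes of the migration and cytoskeleton list, 9 were higher and 1 was lower. *Marcks*, *Marcksl1*, *Samsn1* and *Rgs1* were 4.04-fold, 5.62-fold, 7.80-fold and 12.5-fold higher in IgG and 3.39-fold, 6.15-fold, 4.46-fold and 8.19-fold higher in SPP1-nAb. *Itgb7*, an integrin chain, was the 1 that was lower.

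Antigen presentation and uptake were divided. Of 14 MHC class II genes, 0 were higher and 3 were lower, with medians of −0.85 in IgG and −0.25 in SPP1-nAb. Over all genes kept 8.25% were higher and 12.5% lower, so 3 of 14 is no clear departure from that share. The chains themselves stayed within 2-fold for *H2-Aa* (log2 −0.49 and −0.17), *H2-Eb1* (−0.39 and −0.08) and the invariant chain *Cd74* (−0.64 and −0.32), and *H2-Ab1* was 2.15-fold lower in IgG and 1.56-fold lower in SPP1-nAb. The peptide-loading chaperones *H2-DMa* (log2 −1.86 and −1.85) and *H2-DMb1* (−3.02 and −1.93) were lower in both libraries. *March1*, the ubiquitin ligase that removes MHC class II and CD86 from the surface of immature dendritic cells, had 0 UMIs in IgG and 2 in SPP1-nAb mregDCs, against 377 in the IgG cDCs, at least 8.34-fold lower in that library. For MHC class I, 5 of 15 genes were higher and 1 was lower. *B2m* was 2.43-fold and 2.32-fold higher, *H2-K1* 2.65-fold and 2.53-fold, and *Nlrc5*, the transactivator of class I genes, 9.12-fold and 7.92-fold. Of 12 uptake genes 7 were lower and 2 higher, but *Cd209a*, *Clec9a* and *Clec10a* among the 7 chose the comparison cells, which leaves 4 of 9 lower and 2 higher. The mannose receptor *Mrc1* (log2 −5.13 and −2.93) and the inhibitory Fc receptor *Fcgr2b* (−4.14 and −1.84) were among the 4. *Ly75* (DEC-205), an uptake receptor that mature dendritic cells keep, was 22.5-fold and 16.9-fold higher. Of 7 pattern recognition genes, *Tlr3* and *Cd14* were lower and *Ly96*, the TLR4 cofactor MD-2, was higher.

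The signaling genes differed between pathways and between members of each. In the NF-κB list, 5 of 19 genes were higher and 1 was lower, and those that were higher were *Relb*, *Nfkb2* (5.02-fold and 3.24-fold), *Birc2* (8.34-fold and 7.06-fold), *Traf1* (3.79-fold and 2.99-fold) and *Nfkbib*. *Nfkb2* and *Relb* encode the subunits of the noncanonical dimer. The kinases of that arm, *Map3k14* (log2 1.34 and 0.49) and *Chuk* (1.68-fold and 2.01-fold lower), did not pass 2-fold in both libraries, nor did the canonical *Nfkb1* (log2 0.61 and 0.34) and *Rel* (1.31 and 0.87). In the JAK-STAT list, 6 of 22 genes were higher and 1 was lower. *Il2ra* (CD25) was at 186 and 128 CPM against 1.76 and 1.35 in cDCs, log2 ratios of 6.72 and 6.57. *Il7r*, *Il21r*, *Stat4* and *Stat5a* were 2.68-fold, 7.76-fold, 4.98-fold and 4.32-fold higher in IgG and 3.65-fold, 5.07-fold, 4.19-fold and 2.69-fold higher in SPP1-nAb, and *Ifngr1* was lower (log2 −2.79 and −2.42). In the interferon list 4 of 11 genes were higher, among them *Gbp5* (11.7-fold and 12.1-fold) and *Irf1* (3.19-fold and 2.45-fold). *Isg15* had log2 ratios of 0.72 and 1.32. Survival genes were higher in 7 of 13 cases and lower in 1. *Bcl2l1* was 9.49-fold and 7.15-fold higher, *Bcl2a1b* 7.31-fold and 4.56-fold and *Cflar* 5.46-fold and 3.70-fold. Reads of *Bcl2a1b* and *Bcl2a1d*, which are near-identical copies, may have been divided between them.

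In the NF-κB and MHC class I groups, promoters were available to set beside the levels. A κB-type motif, GGG and TTTCC separated by any 2 bases, on either strand, was sought in the 300 bases from 250 before to 50 after the start site of each gene in RefSeq (build GRCm38.p6), and it was present in 512 of 27025 promoters (1.89%). It was found in 13 of 345 searched genes that were higher in mregDCs (3.77%), 13 of 509 that were lower (2.55%) and 60 of 3348 others (1.79%). Within the lists it was present in 5 of 18 NF-κB pathway genes (27.8%; *Nfkb2*, *Rel*, *Nfkbia*, *Tnfaip3* and *Traf2*) and 0 of 13 maturation genes. The promoters of *Nfkb2*, *Tnfrsf9* and *B2m* are shown because all were higher in mregDCs and each holds 1 match, which is in capitals. In *Nfkb2* (chr19:46304487-46304786, plus strand) the match begins 11 bases before the start site, in *Tnfrsf9* (chr4:150927749-150928048, plus strand) 43 bases before, and in *B2m* (chr2:122147437-122147736, plus strand) 126 bases before, reading on the minus strand. A match is a run of letters and was not tested as a binding site.
Nfkb2: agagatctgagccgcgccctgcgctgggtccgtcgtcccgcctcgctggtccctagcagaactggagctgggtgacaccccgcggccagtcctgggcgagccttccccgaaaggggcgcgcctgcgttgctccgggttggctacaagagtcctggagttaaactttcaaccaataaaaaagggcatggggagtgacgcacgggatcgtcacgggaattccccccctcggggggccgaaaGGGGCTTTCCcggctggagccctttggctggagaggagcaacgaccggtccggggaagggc
Tnfrsf9: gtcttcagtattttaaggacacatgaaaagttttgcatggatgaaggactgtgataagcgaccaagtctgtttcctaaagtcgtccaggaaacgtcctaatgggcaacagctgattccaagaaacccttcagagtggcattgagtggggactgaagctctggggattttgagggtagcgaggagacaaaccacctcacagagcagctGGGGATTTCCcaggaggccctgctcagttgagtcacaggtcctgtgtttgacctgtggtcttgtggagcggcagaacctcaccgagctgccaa
B2m: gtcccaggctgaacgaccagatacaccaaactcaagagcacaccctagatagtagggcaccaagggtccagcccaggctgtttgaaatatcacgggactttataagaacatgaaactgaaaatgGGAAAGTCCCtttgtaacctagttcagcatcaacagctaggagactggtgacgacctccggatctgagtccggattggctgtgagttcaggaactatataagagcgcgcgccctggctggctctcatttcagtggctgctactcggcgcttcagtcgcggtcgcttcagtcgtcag

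Of 18 genes of dendritic cell lineage, 2 were higher and 2 lower, near the shares over all genes kept (8.25% and 12.5%). *Zbtb46*, a transcription factor of conventional dendritic cells, was at 217 and 148 CPM in mregDCs, 3.44-fold and 2.44-fold above the pooled cDCs, and at 4.08 and 2.77 CPM in macrophages. *Flt3*, the receptor for the growth factor of dendritic cells, was at 177 and 173 CPM, and *Id2* was 3.78-fold and 5.05-fold higher. *Irf8*, abundant in cDC1s (915 and 611 CPM) and scarce in cDC2s (28.67 and 22.97 CPM), lay between them in mregDCs (368 and 483 CPM), and *Batf3* was at 226 and 145 CPM, as high as in cDC1s (154 and 125). Of the markers of the types, 6 of 11 for cDC1 and 5 of 10 for cDC2 were lower in mregDCs and 0 were higher. Among these, *Xcr1* and *Clec9a* were used to choose the cDC1s and *Cd209a*, *Klrd1* and *Clec10a* to choose the cDC2s, so their lower values follow from that choice. At 2000 UMIs, 16.3% of IgG and 24.1% of SPP1-nAb mregDCs held a UMI of *Xcr1*, *Clec9a*, *Itgae*, *Cadm1* or *Snx22* alone, 34.9% and 29.6% held *Cd209a*, *Klrd1*, *Clec10a*, *Mgl2* or *Sirpa* alone, 0% held both kinds and 48.8% and 46.3% held neither. The second set is not particular to cDC2s, as 67.9% and 62.8% of macrophages held it alone, but the first was found alone in 1.08% and 1.31% of macrophages. Without thinning, 3 and 7 mregDCs held both kinds. The proliferation genes *Top2a* (5.39-fold and 4.11-fold lower) and *Birc5* and *Ube2c* were lower. Thus 3 of the 6 cell cycle genes kept (of 14 listed) were below cDCs and 0 above, beside 12.5% lower over all genes kept. These calls rested on few mregDC UMIs in IgG and SPP1-nAb, 7 and 12 for *Top2a*, 2 and 5 for *Birc5* and 0 and 2 for *Ube2c*.

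The 15 genes furthest below cDCs were measured on almost no mregDC UMIs. *Ccr2* was the best measured. *Unc119*, *Cd7* and *Cd209e* had 0 UMIs in either library, at least 6.83-fold, 6.19-fold and 2.83-fold lower in IgG and 6.97-fold, 12.5-fold and 10.0-fold lower in SPP1-nAb. *Clec10a* had 1 and 4 UMIs, but it was one of the genes that chose cDC2s. *BC028528* (17.4-fold and 16.4-fold lower, on 4 and 6 UMIs), *Tm6sf1*, *Sla*, *Ifitm6*, *Hepacam2* and *Tlr3* followed. *Fmod*, *Cyp7b1*, *Abi3bp* and *Mmp12* also met the rule with 0 or 1 UMIs, yet these calls turned over under some alternatives, which are given with the processing.

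*Spp1* itself, the target of the antibody, was scarce in mregDCs in IgG (35.5 CPM) and SPP1-nAb (30.7 CPM), compared with 509 and 953 in macrophages. Of the 6 genes kept for SPP1 and its receptors, only the integrin chain *Itga4* passed 2-fold against cDCs, at 864 and 723 CPM and 4.05-fold and 4.42-fold higher. *Cd44*, the other main receptor, was at 421 and 541 CPM (log2 −0.47 and −0.07 against cDCs), *Itgb1* was at 727 and 723 CPM, and *Itga9* and *Itgb3* had 0 UMIs. Between the libraries *Itga4* differed by −0.26 (−0.53 to 0.02) on the log2 scale, *Cd44* by 0.36 (0.00 to 0.73) and *Itgb1* by −0.01 (−0.30 to 0.28).

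The mregDCs were rare but supplied much of the RNA of some genes. They held 0.233% of the filtered UMIs in IgG and 0.282% in SPP1-nAb, whereas they held 73.7% and 83.9% of the library's *Il12b* UMIs, 57.5% and 44.2% of *Ccl22* and 38.8% and 31.5% of *Ccr7*, which chose them. Among genes that did not choose them, the shares were 69.8% and 69.6% for *Lad1*, 52.3% and 43.0% for *Apol7c*, 34.8% and 37.5% for *Tnfrsf4* and 31.3% and 30.7% for *Mreg*. Soluble signals were supplied in part as well. The mregDCs held 27.1% (23.1%–31.5%) and 16.9% (14.6%–19.3%) of *Il4i1*, 20.5% and 18.7% of *Ccl17*, and 14.4% and 11.7% of *Ccl5*. In contrast, *Fscn1* was shared with many other cells, since mregDCs held 10.4% and 10.2% of it.

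**Figure D3:**
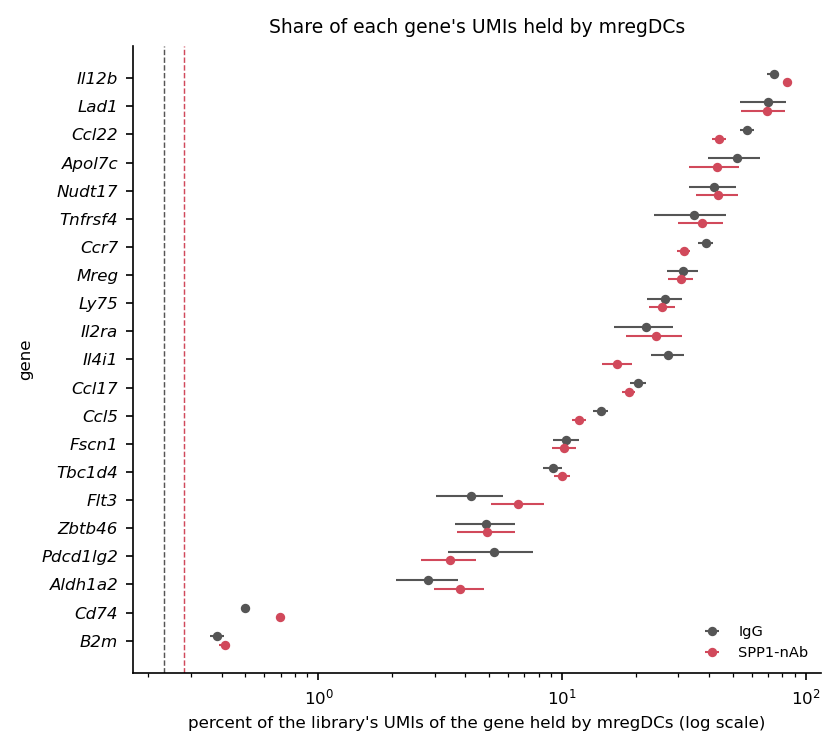
Percent of each library's UMIs of a gene that were held by mregDCs, on a log axis, for IgG and SPP1-nAb. Lines are exact 95% intervals for counting error, and the dashed lines mark the share of all UMIs held by mregDCs (0.233% and 0.282%). All plotted genes lie to the right of the dashed lines.

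The mregDCs varied among themselves. At 2000 UMIs, *Ccl5* ranged from 0 to 89 UMIs per cell in IgG (median 1, with 46.5% of cells at 0) and from 0 to 59 in SPP1-nAb (median 0, 61.1% at 0). *Ccl17* ranged from 0 to 24 (median 0) and from 0 to 37 (median 1), and *Il12b* from 0 to 22 and from 0 to 33. The medians of these secreted signals were thus 0 or 1 UMI, while single cells held many. As *Il12b* was a rule gene, its own spread follows in part from the rule. *Fabp5* had higher medians, 5 and 3 UMIs, and *Actb* was present in every cell (25–134 UMIs in IgG, 4–65 in SPP1-nAb).

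Part of this variation followed *Fscn1*, a split chosen after the values were seen. In IgG 35 mregDCs had a UMI of *Fscn1* and 9 had none, and in SPP1-nAb 40 and 16. Those without it had more UMIs, with medians of 6389 against 4300 in IgG and 7436 against 5598 in SPP1-nAb. *Fabp5* was higher in those with *Fscn1* (4068 against 692 CPM in IgG and 4723 against 863 in SPP1-nAb), as were *Cd63* (log2 2.03 and 1.37), *Tmem123* (1.93 and 1.56), *Tbc1d4* (1.40 and 1.31) and *Relb* (0.79 and 1.70). *Ccl17* ran the other way, at 1315 against 5297 CPM in IgG and 744 against 6528 in SPP1-nAb, and so did *Il1b* (465 against 2206 and 317 against 1841 CPM), *H2-Ab1* (log2 −1.62 and −0.93), *Cd74* (10210 against 20350 and 13230 against 20210 CPM), *Tnip3* (log2 −1.47 and −1.66) and *Tnfsf9* (−1.44 and −1.75). All of these genes kept their sign in both libraries. Since every mregDC without *Fscn1* had to hold *Ccl22* and *Il12b* beside *Ccr7*, the rule itself ties this split to those genes. *Ccl5* was at 4031 against 16.1 CPM in IgG, where 659 of 660 UMIs were in cells with *Fscn1*, and at 2735 against 1316 in SPP1-nAb. All 73 *Cxcl9* UMIs of the IgG mregDCs were in cells without it. Markers of the cDC types also differed by this split. *Cadm1* (log2 −4.79 and −0.92), *Mgl2* (−4.98 and −0.97) and *Irf8* (−0.87 and −0.71) were lower with *Fscn1*. *Ppt1* had 0 UMIs with it against 22 without it in IgG, and 6 against 24 in SPP1-nAb. *Batf3* (1.26 and 0.77) and *Sirpa* (0.85 and 0.61) ran the other way, and *Klrd1* and *Klf4* changed sign between the libraries. The part of cDC-like barcodes in the split was not tested.

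**Figure D4:**
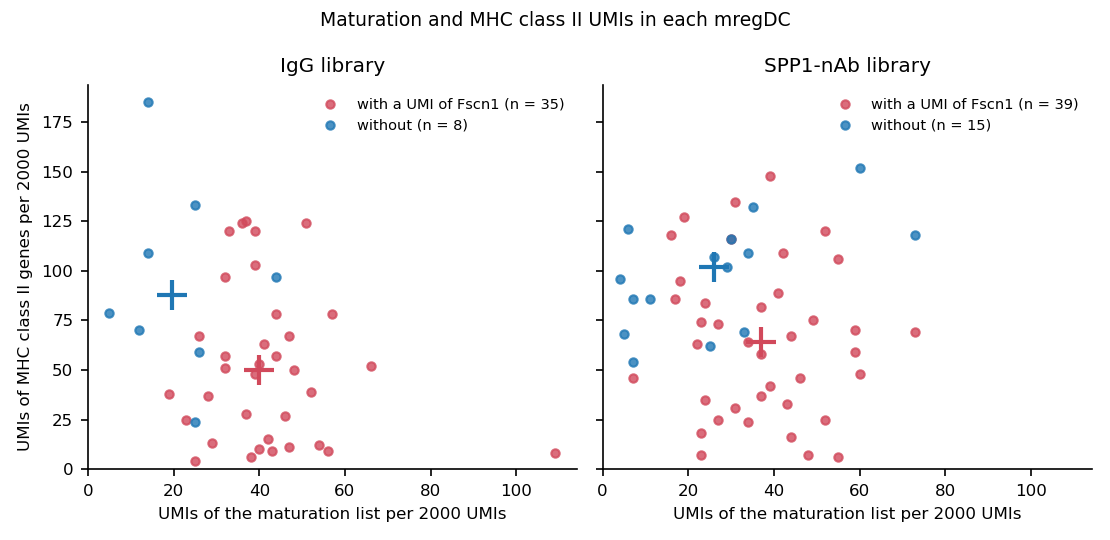
UMIs of the 20 maturation genes (horizontal axis) and of the MHC class II list (vertical axis) in each mregDC thinned to 2000 UMIs, by library and by whether a UMI of *Fscn1* was present before thinning. Each point is 1 cell and crosses are medians. The crosses with *Fscn1* lie lower and further right than those without it in both libraries.

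In each cell thinned to 2000 UMIs, the 20 maturation genes summed to a median of 40 UMIs with *Fscn1* and 19.5 without it in IgG, and 37 and 26 in SPP1-nAb. MHC class II genes summed to medians of 50 with it and 88 without it in IgG, and 64 and 102 in SPP1-nAb. The ranges overlapped in both libraries. Across cells the sums were only loosely related (Spearman's rho −0.24 over 43 IgG mregDCs and −0.10 over 54 SPP1-nAb mregDCs, which share a library and a fixed total).

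The split by *Il12b* overlapped with that by *Fscn1*. In IgG 21 mregDCs had a UMI of *Il12b* and 23 had none, and in SPP1-nAb 31 and 25, and by the rule all mregDCs without *Fscn1* (9 of the 21 and 16 of the 31) were among those with *Il12b*. Those with it had more *Ccl17* (log2 1.77 and 2.34), *Irf8* (1.26 and 1.18), *Ly75* (1.41 and 1.41), *Stat5a* (1.58 and 1.56) and *Bcl2l14* (2.43 and 4.69). They had less *Fabp5* (−2.02 and −1.87), *Apol7c* (−2.43 and −2.50) and *Socs2* (−1.36 and −0.94). Of the cDC1 markers, *Cadm1* was found only in mregDCs with *Il12b* (23 against 0 UMIs in IgG, 69 against 0 in SPP1-nAb). *Ppt1* had 22 against 0 and 26 against 4 UMIs, whereas *Batf3* ran the other way (log2 −0.96 and −1.05). The part of cDC1-like barcodes in this split was not tested. *Ccl17*, *Fabp5* and *Socs2* had the opposite sign in the split by *Fscn1* in both libraries (log2 −2.01 and −3.13, 2.56 and 2.45, 2.03 and 1.86), while *Ly75* had intervals that held 0 there (−0.25, −0.86 to 0.39, and −0.13, −0.57 to 0.32). Other genes changed sign between the libraries in the *Il12b* split, among them *Ccl5* (−1.54 and 1.35), *Isg15* (−2.02 and 1.08), *Ccl3* (2.83 and −2.16) and *Zeb2* (0.82 and −1.28), each with intervals that left out 0.

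The reporter *Gfp* was detected in mregDCs of both libraries (501 and 446 CPM), 2.27-fold and 1.59-fold above cDCs. At 2000 UMIs it was found in 44.2% and 37.0% of mregDCs, 33.4% and 37.4% of cDC2s and 25.5% and 31.6% of macrophages. The Schwann cell genes *Sox10* and *S100b* were at or near 0 in mregDCs, and the whole list summed to 114 and 173 UMIs, of which *Gfp* gave 113 and 160. *Gfp* was higher in mregDCs with *Fscn1* (log2 1.82 and 2.04). The part of free RNA and of the sort in these values was not tested.

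Neutralization of SPP1 was compared with IgG over the summed UMIs of the mregDCs, 358461 against 225578. Of 1761 genes with at least 50 UMIs in mregDCs, found in at least 20 of them and with at most 25% of UMIs in 1 cell, 162 were at least 1.5-fold higher in SPP1-nAb (9.2%) and 96 were at least 1.5-fold lower (5.45%), with a median log2 ratio of 0.0056. The minimum is on the UMIs of both libraries together, of which SPP1-nAb gave more, so genes high in that library passed more easily. By intervals that left out 0, 157 genes were higher and 148 lower. Mice, injection and library cannot be told apart here. With median-of-ratios size factors the numbers were 131 and 117. Without the barcode that carried most mesenchymal UMIs they were 165 and 90.

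**Figure D5:**
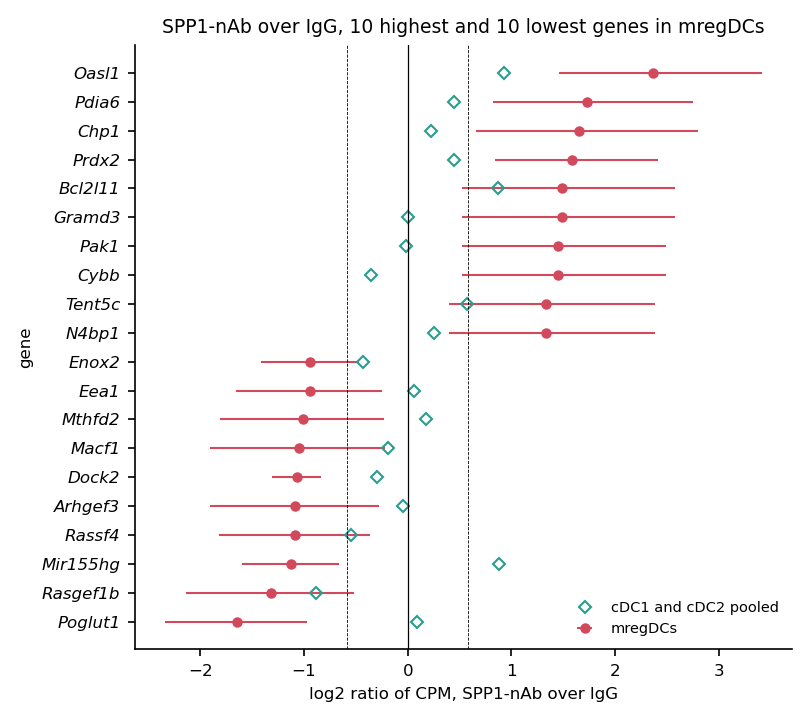
Log2 ratio of CPM in SPP1-nAb over IgG mregDCs for the 10 genes with the highest and the 10 with the lowest ratio by the rule for named genes. Points are ratios with exact 95% intervals for counting error, diamonds give the same ratio in cDC1s and cDC2s together, and dashed lines mark 1.5-fold. *Oasl1* is at the top and *Poglut1* at the bottom, and since the genes were chosen on the mregDC points, the diamonds cannot be read against them.

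The highest ratio was that of *Oasl1* (chr5:115061294-115075974), an interferon-induced inhibitor of IRF7 translation, with 11 UMIs in IgG (48.8 CPM) and 90 in SPP1-nAb (251 CPM), a log2 ratio of 2.36 (1.46–3.42). The same gene had a log2 ratio of 0.93 in cDCs, 20 mregDCs held it, and 1 of them held 23.8% of its UMIs. *Isg15*, of the same response, had a log2 ratio of 0.17 (−0.16 to 0.51). Of the 18 genes of the interferon list only 4 were kept here, and 1 of the 4, *Oasl1*, was past 1.5-fold. All 18 summed to 1472 CPM in IgG and 1911 in SPP1-nAb (log2 0.38, 0.19–0.57), but this difference lay mainly in *Oasl1* and *Ifi205* (133 and 318 CPM on 30 and 114 UMIs, not kept), without which it was 0.06 (−0.16 to 0.27). The same 18 genes were lower in SPP1-nAb in cDC2s (1077 and 687 CPM) and macrophages (1492 and 1140), and stood at 2141 and 2024 CPM in cDC1s. *Prdx2*, a peroxide-removing enzyme found in 56 mregDCs, stood at 79.8 and 240 CPM (log2 1.59, 0.84–2.41). *Pdia6*, a chaperone of the endoplasmic reticulum (1.72), *Chp1* (1.65), the proapoptotic *Bcl2l11* (1.49), *Gramd3* (1.49), *Pak1* (1.45), the NADPH oxidase subunit *Cybb* (1.45), *Tent5c* (1.33) and *N4bp1* (1.33) followed, each on 10–12 IgG UMIs.

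At the other end, *Poglut1*, which adds glucose to Notch receptors, was at 253 and 80.9 CPM (log2 −1.64, −2.34 to −0.97) and was seen in 53 mregDCs, and its log2 ratio in cDCs was 0.09. *Mir155hg*, the host transcript of miR-155, was at 421 and 193 CPM (log2 −1.13, −1.60 to −0.67) in mregDCs but had a log2 ratio of 0.88 in cDCs. *Dock2*, a Rac activator that leukocytes need for migration, was measured best of the 10, at 1534 and 731 CPM in 87 mregDCs (log2 −1.07, −1.31 to −0.83, with −0.30 in cDCs). *Rasgef1b* (−1.32), *Rassf4* (−1.08), *Arhgef3* (−1.08), *Macf1* (−1.05), *Mthfd2* (−1.01), *Eea1* (−0.95) and *Enox2* (−0.94) completed the 10.

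Sums over a list can rest on 1 or 2 abundant genes, so each was repeated without the 2 genes that moved it most, a step chosen after the data were seen. Over all 1761 genes kept, 9.2% were past 1.5-fold higher and 5.45% lower. The counts by list below are small and were not tested against these shares. By list, the maturation genes summed to slightly less in SPP1-nAb (log2 −0.15, −0.21 to −0.09, and −0.09, −0.15 to −0.02, without *Ccl5* and *Cd63*), with 0 of the 18 kept past 1.5-fold higher and 2 past it lower, *Cacnb3* (−0.81, −1.35 to −0.27) and *Cd200* (−0.67, −1.11 to −0.23). MHC class II genes summed to more (0.28, 0.24–0.32, and 0.29, 0.22–0.35, without *Cd74* and *H2-Eb1*), with 2 of the 11 kept past 1.5-fold, *H2-DMb1* (1.08) and *H2-DMb2* (1.15), and *H2-Ab1* at 0.39 (0.25–0.52). Of 14 migration genes kept 0 were higher and 3 were lower, *Actb* at 27620 and 15550 CPM (−0.83, −0.88 to −0.78), *Rgs1* (−0.79) and *Arhgap22* (−0.76). *Actb* was also lower in SPP1-nAb in cDC1s (17700 and 11680 CPM), cDC2s (13820 and 8775) and macrophages (9247 and 6164), and *Arhgap22* had a log2 ratio of −0.71 in cDCs. The sum of the migration list (−0.28, −0.31 to −0.25) differed through *Actb* alone, as it was −0.01 (−0.04 to 0.03) without that gene. The survival list in the same way went from −0.26 (−0.36 to −0.16) to −0.04 (−0.20 to 0.11) without the near-identical *Bcl2a1b* and *Bcl2a1d*. The NF-κB list summed to −0.25 (−0.33 to −0.17), and to −0.17 (−0.27 to −0.06) without *Nfkbia* and *Rel*. Antigen uptake, of which 2 genes were kept, summed to 0.56 (0.31–0.81), and to 0.78 (0.39–1.18) without *Ly75* and *Havcr2*. Sums of the cDC1 markers (0.25, 0.02–0.49), the lipid and retinoid list (0.19, 0.07–0.31) and the cell cycle list (0.65, 0.06–1.27) were larger too. Without *Irf8* and *Cadm1* the cDC1 markers were at −0.01 (−0.34 to 0.32). The cDC2 markers went the other way, from −0.12 (−0.40 to 0.16) to 0.48 (0.09–0.88) without *Mgl2* and *Klrd1*. Chemokines likewise went from −0.03 (−0.12 to 0.06) to 0.26 (0.14–0.38) without *Ccl5* and *Ccl4*. The lipid list was at 0.22 (−0.05 to 0.50) without *Fabp5* and *Abcg1*, and the cell cycle list at 0.36 (−0.32 to 1.065) without *Mki67* and *Ccna2*. The receptors *Cxcr4* (1.12, 0.42–1.88), *Il7r* (0.90, 0.38–1.46) and *Csf2rb* (0.93, 0.41–1.48) were higher in mregDCs, and in cDCs their log2 ratios were 0.59, 0.46 and 0.88. Also higher was the macrophage gene *Lyz2* (1.20) beside the larger macrophage sum of that library (508 against 222 CPM). *Cd274* (−0.27, −0.58 to 0.04), *Il4i1* (−0.22, −0.56 to 0.13) and *Relb* (−0.07, −0.38 to 0.25) had intervals that held 0. The fewer mregDCs without *Fscn1* in IgG (9 of 44, against 16 of 56) stand beside the higher MHC class II sum in SPP1-nAb, and their part in it was not tested.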

How the data were processed

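The data were UMI counts of 2 droplet scRNA-Seq libraries, 1 of IgG-treated and 1 of SPP1-nAb–treated muscle at 7 dpi, grouped by the treatment in the labels. The authors deposited the filtered feature-barcode matrices of raw UMI counts per gene and barcode that Cell Ranger made on GRCm39 with GFP added (version 8.0.0 per the labels, 9.0.1 per the file headers). The removal of ambient RNA and of doublets, the integration and the cell annotation that the methods describe are not part of these counts, so free RNA and doublets can add UMIs to any barcode. No doublets were removed. A score of simulated neighbors placed 0 IgG and 2 SPP1-nAb mregDCs in the top 10% of their library, and removing that 10% was an alternative.

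UMIs were summed per group and library and given as CPM of all UMIs. To compare how many cells held a gene, each cell was thinned to 2000 UMIs. Intervals were Clopper-Pearson or conditional binomial (95%), and a group at 0 UMIs was set to 3 counts over the group for a bound. Genes kept had a mean of at least 20 CPM over mregDCs, cDC1s and cDC2s (comparison with cDCs), or at least 50 UMIs in mregDCs, a UMI in at least 20 of them and at most 25% of UMIs in 1 cell (SPP1-nAb against IgG). Genes were named from the lists or as the 15 highest and 15 lowest by the smaller ratio of both libraries (cDC comparison) and the 10 highest and 10 lowest (SPP1-nAb against IgG), without mitochondrial, ribosomal, hemoglobin, immunoglobulin, sex-linked, unnamed and rule genes. The rule for the cells and the 30 gene lists (410 genes) were chosen with earlier results of these data known. Of the listed genes, 5 were not found by symbol in the files and 2 were matched by an older symbol. Scripts used Python 3.11.15, numpy 2.4.6, scipy 1.17.1, pandas 2.3.3 and scikit-learn 1.9.0. The ratio and doublet steps were tested on simulated counts made from the measured ones. Gene coordinates are those of GRCm39 and promoter sequences those of RefSeq GRCm38.p6.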

Additional observations from a re-analysis of the deposited data

How the results depend on the processing

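No paired analysis was possible because each condition was 1 library with no replicate number, and for the same reason no replicate could be left out. The difference in mregDC share ranged from 0.00167 percentage points with all 4 genes required to 0.0532 with *C1qa* and *Siglech* not used. These alternatives recount largely the same cells of the same libraries, so a shared sign is no replicate. The interval of the main difference held 0 (−0.0468 to 0.123). Requiring all 4 genes left 10 IgG and 11 SPP1-nAb mregDCs and gave 1033 genes lower than in cDCs in place of 652, and 14 higher and 16 lower in SPP1-nAb in place of 162 and 96, since fewer genes reached 50 UMIs, and it gave no value for *Pdia6* and *Macf1*. A mean of at least 5 CPM gave 661 genes higher and 1313 lower than cDCs, and at least 20 UMIs gave 393 higher and 247 lower in SPP1-nAb, since more genes were kept. Shares of mregDCs with a UMI moved with depth. Thinned to 1000 UMIs and unthinned, *Cd274* was found in 45.5% and 84.1% of IgG and 35.7% and 78.6% of SPP1-nAb mregDCs, *Il4i1* in 36.4% and 77.3% of IgG and 39.3% and 73.2% of SPP1-nAb, and *Relb* in 52.3% and 93.2% of IgG and 44.6% and 92.9% of SPP1-nAb.

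Of the named genes lower than in cDCs, 5 turned over under an alternative (log2 ratios). With all 4 genes required, *Fmod* was at 0.73, *Cyp7b1* at 0.33, *Mmp12* at 0.37 and *Abi3bp* at 0.48, where 3 counts in few mregDC UMIs set the value. With the top 10% of doublet scores removed, *Fmod* was at 3.14 and *Abi3bp* at 2.58, and against cDC2s alone *Tlr3* was at 0.35. The cause was not tested. Of the values of named genes and the medians of lists, 613 stayed within their counting interval or the SD of both libraries, 181 moved further and these 7 turned over. The other alternatives gave 430–566 genes higher and 527–796 lower than cDCs, and 114–218 higher and 90–118 lower in SPP1-nAb. Chosen after seeing the data, the cells with *Fscn1* alone gave 485 and 796 against cDCs and 114 and 104 in SPP1-nAb, of which 65 and 59 were shared with all mregDCs, and leaving out the cell with most mesenchymal UMIs gave 442 and 717.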
